A study of Mus musculus with 60 samples.

Results

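CL6G45 and CL6G36 are sublines of P19CL6, which is itself a subclone of the mouse embryonal carcinoma line P19. They were set against each other on the 20 arrays whose titles name them, of 60 arrays in all. Each subline had 5 replicates, and each replicate was measured once on the Affymetrix array MOE430A and once on MOE430B. All strains of the series (CL6G45, CL6G36, CL6G26, CL6G52, their parent line P19CL6, and P19) were undifferentiated cells that derive from a male C3H embryo, kept in a serum-containing alpha-MEM culture with no treatment named. Each subline is a single named line, so that a difference between CL6G45 and CL6G36 is a difference between these 2 lines. The labels call the replicates biological without saying that they were separate cultures, and the p-values therefore measure only the spread between these samples.

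Embryonal carcinoma cells are the stem cells of teratocarcinomas and keep the pluripotency network of the early embryo, in which Pou5f1, Nanog and Sox2 act together. P19 cells form neural derivatives after retinoic acid, and P19CL6 is known as a subclone that forms beating cardiac muscle in the presence of dimethyl sulfoxide. Clonal sublines of 1 culture can differ in which genes they keep active and in their chromosomes.

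Levels are given as log2 signal after quantile normalization, and a difference of 1 on that scale is a change of 2-fold. A difference is CL6G45 minus CL6G36. A gene was called where limma's test, two-sided and with Benjamini-Hochberg adjustment within an array type, gave an adjusted p under 0.05 and the difference reached 2-fold. The floor, under which a signal was treated as not above background, was 4.61 on MOE430A and 4.15 on MOE430B. The median deposited signals were 35.7 to 50.1 in CL6G45 and 30.2 to 43.7 in CL6G36 on MOE430A, and 12 to 15.6 in CL6G45 and 11.4 to 14.1 in CL6G36 on MOE430B. The Gapdh 3′ to 5′ signal ratios, a sign of RNA quality, overlapped on both array types. Some arrays outside this comparison went against their labels. In CL6G52 replicate 1, 62 of the 68 genes called below were nearer to the CL6G45 mean and 6 nearer to the CL6G36 mean, whereas the mean of CL6G52 replicates 2 to 5 was nearer to CL6G45 for 37 and to CL6G36 for 31. Replicates 4 and 5 of P19 departed from its replicates 1 to 3 on MOE430A: Trh was at 5.16 and 4.41 there, against 11.13, 11.29 and 11.29 in replicates 1 to 3, and at 4.44 to 5.17 in P19CL6. The comparison of CL6G45 with CL6G36 is fitted without these arrays, which enter the fit on all 30 arrays. CL6G52 replicate 1 is left out where CL6G52 serves as a level to compare with. It is plotted with its strain and included in the ranges over arrays of the runs, and counts between sublines are given with and without it.

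The embryonal carcinoma label held in both sublines. All 6 defining markers (Pou5f1, Nanog, Sox2, Sall4, Lin28a and Utf1) were above the floor on all 10 MOE430A arrays. Pou5f1 lay between 11.40 and 11.48 in CL6G45 and between 11.45 and 11.66 in CL6G36 (difference −0.13 ± 0.05 SE, adjusted p = 0.113 by limma). The differences of Nanog (0.08 ± 0.14, limma adjusted p = 0.793) and Sox2 (−0.14 ± 0.12, adjusted p = 0.551) did not pass the test either. Of the fibroblast markers, 7 of 10 were under the floor on every array, and their summed signal was 204 to 229 in CL6G45 and 199 to 228 in CL6G36. Of the trophoblast markers on the arrays, 6 of 9 were under it throughout, with sums of 106 to 161 in CL6G45 and 151 to 176 in CL6G36. Of the extraembryonic endoderm markers, 4 of 12 were under it throughout and 1 above it on all 10 arrays, with sums of 207 to 275 in CL6G45 and 221 to 254 in CL6G36. Of the neural markers on the arrays, 5 of 11 were under it throughout and 4 above it on all 10 arrays. The neural marker sum was lower in CL6G45, at 979.6 to 1094 against 1191 to 1383 in CL6G36. Among those markers Stmn2, which encodes the microtubule protein stathmin-2, was the 1 of 5 tested that passed (−0.53 ± 0.08, limma adjusted p = 5.51e-04). It was also the brightest, with means of 9.15 in CL6G45 and 9.67 in CL6G36, so the sum leans on this gene. Nes was at 7.51 in CL6G45 and 7.77 in CL6G36, Tubb3 at 6.79 and 6.82, and Elavl3 at 5.92 and 5.85. The part of these marker sums in the results that follow was not tested. In bulk RNA, fewer cells of a type and less RNA per cell cannot be told apart.

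Of 12324 genes tested, 68 were called (0.552%), 36 higher in CL6G45 (0.292%) and 32 lower (0.26%). With signals as deposited, without quantile normalization, the number was also 68, of which 70.6% were higher in CL6G45, against 52.9% after quantile normalization; the median difference of all genes was then 0.12, against 0.00 after it. Without the 2-fold limit 503 genes passed (4.08%), 223 higher (1.81%) and 280 lower (2.27%), and 2224 genes (18%) had an unadjusted p under 0.05. The 5 arrays of CL6G45 and the 5 of CL6G36 did not overlap for 62 of the 68 called genes, against 6.2% of all genes tested. The signals were above the floor on all 10 arrays for 26 of the 68, and under it throughout in 1 subline for 14. Signals raised to the floor left 42 of the 68 with a difference of at least 2-fold. For 21 of the 68 the arrays of the other subline and P19CL6 alone would not have met the filter of 5 arrays above the floor. Gpr37 and Cerox1 met it through the brighter subline alone. Of the genes named below, Trh, Gsn, Gstm5, Cnn1, Cacna2d2, Wnt4, Batf3, Nr1d1 and Dlx4 are also among the 21, and all of these are given as descriptions without a p.

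CL6G45 and CL6G36 were the most alike of the 6 pairs of sublines, which share arrays, with a root mean square difference of 0.330 over the genes tested. With all 5 replicates of CL6G52 the same rule called 74 genes between CL6G52 and CL6G26 (0.6%), 77 between CL6G52 and CL6G45 (0.625%) and 133 between CL6G52 and CL6G36 (1.08%). It called 163 between CL6G45 and CL6G26 (1.32%) and 179 between CL6G36 and CL6G26 (1.45%). Without CL6G52 replicate 1 the counts were 103 against CL6G26 (0.836%), 194 against CL6G45 (1.57%) and 205 against CL6G36 (1.66%).

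**Figure D1:**
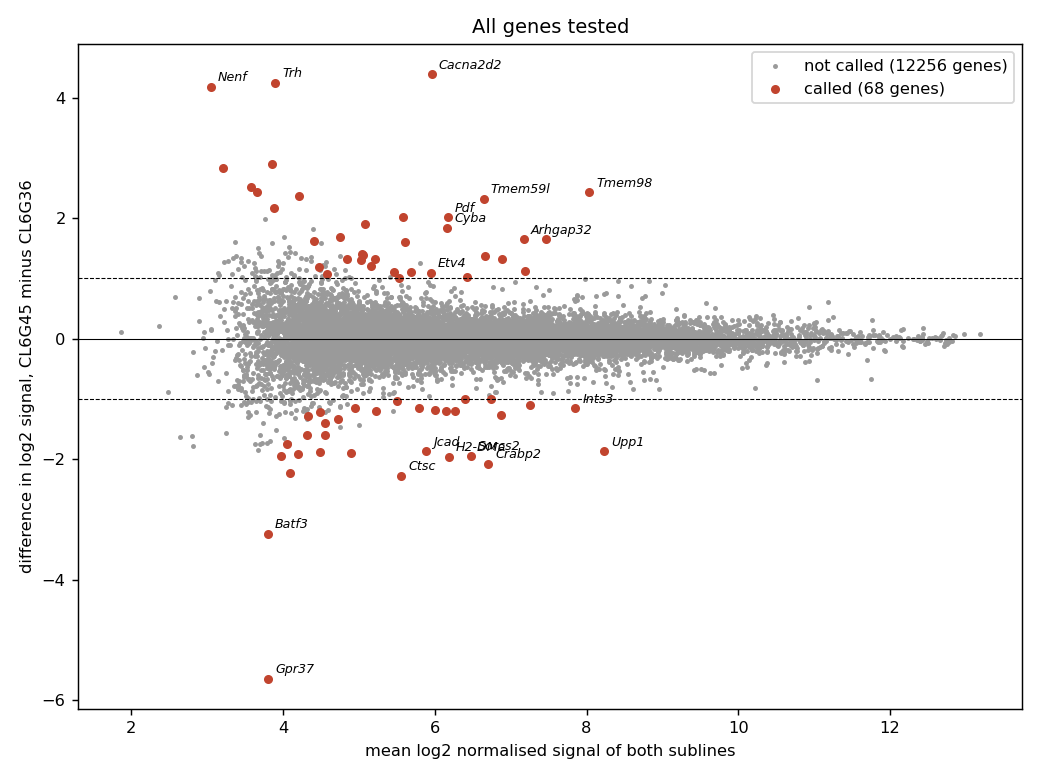
Difference between CL6G45 and CL6G36 (log2, vertical axis) against mean log2 signal (horizontal axis) for the 12324 genes tested, with the 68 called genes in red and dashed lines at 2-fold. Called genes lie on both sides, 36 above and 32 below 0, and most genes lie close to 0.

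The largest increases among genes measured above the floor on all 10 arrays were in Tmem98, Tmem59l and Pdf. Tmem98 encodes a membrane protein that binds the transcription factor Myrf and restrains its release. Its log2 signals were 9.19, 9.38, 9.41, 8.89 and 9.39 in CL6G45, against 6.59, 7.30, 6.69, 6.85 and 6.66 in CL6G36. Every CL6G45 array lay above every CL6G36 array, and the fitted difference was 2.43 ± 0.13 (SE; 5.39-fold, limma adjusted p = 7.53e-08). Tmem59l, a relative of the Golgi protein gene Tmem59 that is enriched in neurons, gave 7.68, 7.74, 7.90, 7.85 and 7.86 in CL6G45, against 5.56, 5.38, 5.70, 5.33 and 5.44 in CL6G36. The groups did not overlap (2.32 ± 0.10, 5.01-fold, limma adjusted p = 1.25e-09). Pdf encodes the mitochondrial peptide deformylase, which removes the formyl group from newly made proteins. It gave 7.30, 6.91, 7.16, 7.41 and 7.10 in CL6G45, against 5.44, 4.90, 5.10, 5.04 and 5.34 in CL6G36, without overlap (2.01 ± 0.13, 4.03-fold, limma adjusted p = 2.82e-07). Of the 6 genes tested that act on N-terminal methionine, Pdf was the one that passed.

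The largest decreases above the floor were in Crabp2, H2-DMa and Sorcs2. Crabp2 encodes the cellular retinoic acid binding protein that carries retinoic acid to its nuclear receptors. It gave 5.58, 6.08, 6.11, 5.08 and 5.47 in CL6G45, against 7.70, 7.63, 7.81, 7.69 and 7.87 in CL6G36. The highest CL6G45 array was below the lowest CL6G36 array (−2.08 ± 0.16, limma adjusted p = 1.31e-06). H2-DMa encodes the alpha chain of the H2-DM heterodimer, which loads peptides onto MHC class II molecules. Its signals were 5.37, 4.92, 5.08, 5.44 and 5.23 in CL6G45, against 7.18, 7.29, 7.44, 6.91 and 7.01 in CL6G36, again without overlap (−1.96 ± 0.13, limma adjusted p = 2.82e-07). Sorcs2, a VPS10-domain receptor for proneurotrophins, gave 5.32, 5.73, 5.84, 5.42 and 5.24 in CL6G45, against 7.53, 7.47, 7.65, 7.21 and 7.39 in CL6G36, with a clear gap between the groups (−1.94 ± 0.13, limma adjusted p = 2.82e-07).

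**Figure D2:**
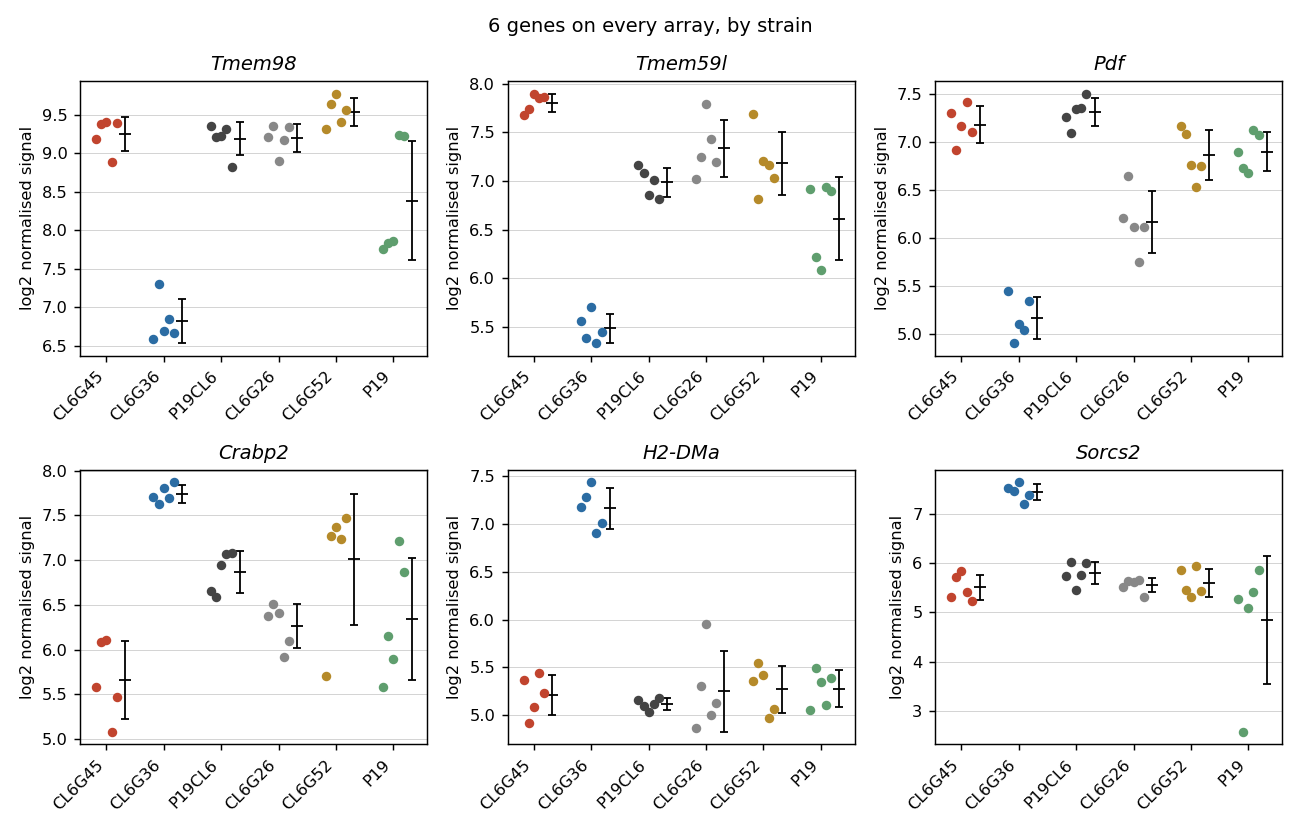
Log2 signal of Tmem98, Tmem59l, Pdf, Crabp2, H2-DMa and Sorcs2 on each array (points) by strain, with the mean and SD in black. Tmem98, Tmem59l and Pdf are high and Crabp2, H2-DMa and Sorcs2 low in all 5 CL6G45 arrays relative to the 5 CL6G36 arrays.

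The other strains show which of the sublines departed from the rest, as a description without a test. The parent line P19CL6 averaged 9.19 ± 0.21 for Tmem98 (SD, n = 5), close to CL6G45 at 9.25 ± 0.22 and far from CL6G36 at 6.82 ± 0.28. For Pdf the means were 7.18 ± 0.19 in CL6G45, 5.17 ± 0.22 in CL6G36 and 7.31 ± 0.15 in P19CL6. For H2-DMa, P19CL6 averaged 5.12, near CL6G45 at 5.21 and below CL6G36 at 7.17. Crabp2 averaged 5.66 in CL6G45, 7.74 in CL6G36 and 6.87 in P19CL6, so that P19CL6 lay between the sublines. Tmem59l averaged 7.81 in CL6G45, 5.48 in CL6G36 and 6.98 in P19CL6. Over the 68 called genes, P19CL6 was nearer to CL6G45 for 39 and to CL6G36 for 29. This differed by direction: among the genes higher in CL6G45, P19CL6 was nearer to CL6G45 for 26 and to CL6G36 for 10, and among those lower in CL6G45 it was nearer to CL6G45 for 13 and to CL6G36 for 19.

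A stricter description asks in which genes 1 subline lay outside all 14 arrays of P19CL6, CL6G26 and CL6G52 replicates 2 to 5. CL6G36 lay above all of them for 11 called genes and below all of them for 10, against 3.54% and 2.24% of all genes tested. CL6G45 lay above them for 8 and below them for 6, against 3.62% and 2.66% of all genes. Neither subline stood apart for 34 genes, and both did for Batf3, an AP-1 family transcription factor gene. Since the 68 genes were chosen for a difference between these sublines, nothing is read from these shares. CL6G36 stood apart as the high subline in H2-DMa, Sorcs2, Jcad, Gpr37, Ints3, Rps27, Ctsc, Crabp2, Thsd7a and Ttll9, and as the low subline in Nenf, Tmem98, Tmem59l, Pdf, Cbr3, Klhl22, Prxl2b, Vash2, Etv4 and Angel2. CL6G45 stood apart as the high subline in Cacna2d2, Cerox1, Spon1, Arhgap32, Depdc5, Stap2, Dtx1 and Tmem123, and as the low one in Wsb1, Denn2b, Erbb2, Ldb2 and Pcolce. Several of these names (among them Klhl22, Prxl2b, Stap2, Ttll9, Erbb2, Rps27, Cacna2d2 and Spon1) were chosen after their values were seen. P19 was not among the 14 arrays, and its replicates 1 to 3 shared some of these levels. There Dtx1, Spon1, Stap2 and Ctsc were near or above the high subline named, and Denn2b and Pcolce near or below the low one. For others, such as Cacna2d2, Arhgap32, H2-DMa and Sorcs2, P19 did not reach the subline named.

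Depdc5 and Arhgap32 led the further increases above the floor after Cyba. Depdc5, a subunit of the GATOR1 complex that restrains mTORC1, gave 8.26, 8.29, 8.42, 8.24 and 8.23 in CL6G45, against 6.68, 6.48, 6.80, 6.55 and 6.67 in CL6G36. All CL6G45 arrays were higher (1.65 ± 0.08, limma adjusted p = 4.29e-09), though this rests on 1 of 6 probe sets: the others differed by −0.31 to 1.01, and 1 of them passed the test. Arhgap32, a GTPase activating protein gene, gave 8, 7.80, 7.94, 8.13 and 8.13 in CL6G45, against 6.44, 6.38, 6.22, 6.47 and 6.22 in CL6G36 (1.66 ± 0.09, limma adjusted p = 1.84e-08). Its other probe set differed by 0.45 and did not pass. Dtx1, the Deltex ubiquitin ligase of the Notch pathway, averaged 7.36 in CL6G45 and 5.98 in CL6G36 (1.38 ± 0.11, limma adjusted p = 1.74e-06). Etv4, an ETS factor that responds to FGF signalling, averaged 6.50 in CL6G45 and 5.40 in CL6G36 (1.10 ± 0.15, limma adjusted p = 3.24e-04). Its probe set on MOE430B, read in place of the one on MOE430A, differed by 1.11 and did not pass (adjusted p = 0.721). Cyba, which encodes the membrane subunit p22phox of NADPH oxidases, differed by 1.84 ± 0.13, but did not pass in the limma fit on all 30 arrays (adjusted p = 0.198). That fit includes CL6G52 replicate 1, where Cyba was at 7.38 against 0.36 to 2.78 in replicates 2 to 5, and the divided P19 arrays. Xrcc5, the Ku80 subunit of the end-joining repair complex, differed by 1.32 ± 0.10. Tmem123, a membrane mucin gene, differed by 1.13 ± 0.13, and Vash2, a tubulin carboxypeptidase gene, by 1.10 ± 0.14. None of these groups overlapped.

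Upp1 and Jcad led the further decreases above the floor. Upp1, the uridine phosphorylase gene, gave 7.48, 7.09, 7.34, 7.54 and 7.02 in CL6G45, against 9.16, 9.47, 9.36, 8.96 and 8.88 in CL6G36, without overlap (−1.87 ± 0.13, limma adjusted p = 2.82e-07). Jcad, an endothelial junction protein gene, averaged 4.95 in CL6G45, not far above the floor, and 6.82 in CL6G36 (−1.87 ± 0.14, limma adjusted p = 1.17e-06). Ppp1r1a, an inhibitor of protein phosphatase 1, differed by −1.19 ± 0.21, and Denn2b, a DENN-domain regulator of Rab GTPases, by −1.19 ± 0.14. Thsd7a, a membrane protein with thrombospondin repeats, differed by −1.18 ± 0.12, and the secreted Wnt antagonist gene Sfrp1 by −1.15 ± 0.15. Ldb2, a cofactor of LIM-domain transcription factors, differed by −1.11 ± 0.11, and Pcolce, an enhancer of procollagen processing, by −1.01 ± 0.10. The arrays of the sublines were separated for each of these genes.

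For genes at background in 1 subline the signal gives only a bound on the fold change, taken as the brighter subline's mean over the higher of the floor and the dim signals. Trh, the precursor gene of thyrotropin-releasing hormone, gave 6, 6.23, 6.05, 5.90 and 5.90 in CL6G45, against 1.18, 2.27, 1.67, 1.81 and 1.91 in CL6G36, and every CL6G36 signal was under the floor. It was at least 2.65-fold higher in CL6G45. Cbr3, a carbonyl reductase gene, was at least 2.69-fold higher, with 5.68 to 6.4 in CL6G45 and 3.79 to 4.34 in CL6G36 (limma adjusted p = 9.92e-06). Nenf, which encodes the secreted neurotrophic protein neudesin, was at least 1.44-fold higher. Gstm5, a glutathione transferase gene, was at least 1.72-fold higher, and the actin-severing gelsolin gene Gsn at least 1.53-fold. Cerox1, a non-coding RNA linked to respiratory complex I, was at least 1.39-fold higher.

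In the other direction Gpr37, an orphan receptor gene, was under the floor on all CL6G45 arrays, at 0.00, 1.06, 2.78, 0.00 and 1.07, against 6.83, 6.53, 6.36, 6.76 and 6.65 in CL6G36. It was at least 4.03-fold lower in CL6G45. Wsb1, a substrate receptor of a ubiquitin ligase, was at least 1.76-fold lower, and Batf3 at least 1.75-fold. The circadian repressor gene Nr1d1 was at least 1.71-fold lower, the scaffold protein gene Ahnak at least 1.67-fold and the homeobox gene Dlx4 at least 1.40-fold. With MOE430B read first Dlx4 differed by −0.13. Cacna2d2, Spon1 and Ctsc differed strongly as well, with signals that crossed the floor in part. Cacna2d2, an auxiliary subunit of voltage-gated calcium channels, gave 7.92, 8.17, 8.11, 8.31 and 8.24 in CL6G45, against 3.17, 4.57, 3.09, 2.94 and 5.04 in CL6G36. The groups were far apart, and the difference with signals raised to the floor was 3.46. Ctsc, the lysosomal dipeptidyl peptidase cathepsin C, gave 4.28, 4.66, 4.55, 4.24 and 4.35 in CL6G45, against 6.70, 7.01, 6.51, 6.82 and 6.44 in CL6G36 (−2.28 ± 0.14, limma adjusted p = 2.82e-07).

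Gene groups that define or pattern the pluripotent state were compared next. None of the 12 core pluripotency genes tested passed in either direction by limma's adjusted p, and 2 had an unadjusted p under 0.05 (median difference 0.07, against 0.00 over all genes). Genes of the primed epiblast, the state that follows implantation, passed in 6 of 14 cases, all higher in CL6G45, with a median of 0.26, beside 1.81% of all genes higher. They were Fgf15 (0.94), Fgf5 (0.89), Zic5 (0.78), Fzd7 (0.34), Dnmt3b (0.28) and Otx2 (0.23). Fgf5, the standard marker of that state, gave 6.23, 6.16, 6.09, 5.94 and 5.55 in CL6G45, against 4.62, 5.12, 5.34, 5.21 and 5.23 in CL6G36, without overlap. Fgf15, another secreted growth factor gene of the family, gave 7.32, 7.64, 7.46, 7.55 and 7.66 in CL6G45, against 6.74, 6.84, 6.75, 6.55 and 6.02 in CL6G36. The groups did not overlap (limma adjusted p = 5.93e-04). Fgf15, Fgf5 and Zic5 also passed with signals as deposited and in the fit on all 30 arrays, and Fzd7, Dnmt3b and Otx2 in neither. In the FGF and ERK list, 4 of 18 were higher (Etv4, Fgf15, Fgf5 and the feedback phosphatase gene Dusp6, 0.44) and 1 was lower (the receptor gene Fgfr1, −0.39), with a median of 0.22.

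The signalling lists are given by their counts, beside 4.08% of all genes. In the Nodal list 2 of 17 were higher, the antagonist gene Lefty1 (0.60) and Skil (0.30), and 2 were lower, the ligand gene Gdf3 (−0.39) and Fstl1 (−0.30). Lefty1 lay at 9.78 to 10.01 in CL6G45 and at 9 to 9.71 in CL6G36, and it passed also with signals as deposited but not in the limma fit on all 30 arrays (adjusted p = 0.0899). In the BMP list 2 of 14 were higher, the target gene Id3 (0.48) and the signal transducer gene Smad1 (0.39), which differed by 0.057 and did not pass with MOE430B read first. In the Notch list 2 of 16 were higher, the ligand gene Dll3 (1.11) and the target gene Nrarp (0.38); the list does not hold Dtx1. In the Hedgehog list the receptor gene Ptch1 was higher (0.44), 1 of 10 tested, and 5 had an unadjusted p under 0.05, all of them higher, beside 18% of all genes in either direction. In the Wnt list Fzd7 was higher and Sfrp1 lower, of 19 tested; the list does not hold the ligand gene Wnt4, which was among the called genes with a level partly under the floor (difference −1.59) and was chosen after its values were seen. Of 12 retinoic acid genes tested 2 were lower, Crabp2 and the retinol dehydrogenase gene Rdh10 (−0.52). In the streak and mesendoderm list 1 of 16 was higher, the homeobox gene Mixl1 (0.85, under the floor in CL6G36), and 1 was lower, the peptide ligand gene Apela (−0.70). None of the 12 cardiac transcription factors tested passed limma's adjusted p, and 1 had an unadjusted p under 0.05. Cnn1, the calponin gene of smooth muscle, had a difference of 2.53 among 12 contractile genes, with signals near or under the floor, and Tpm1 was lower (−0.43).

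**Figure D3:**
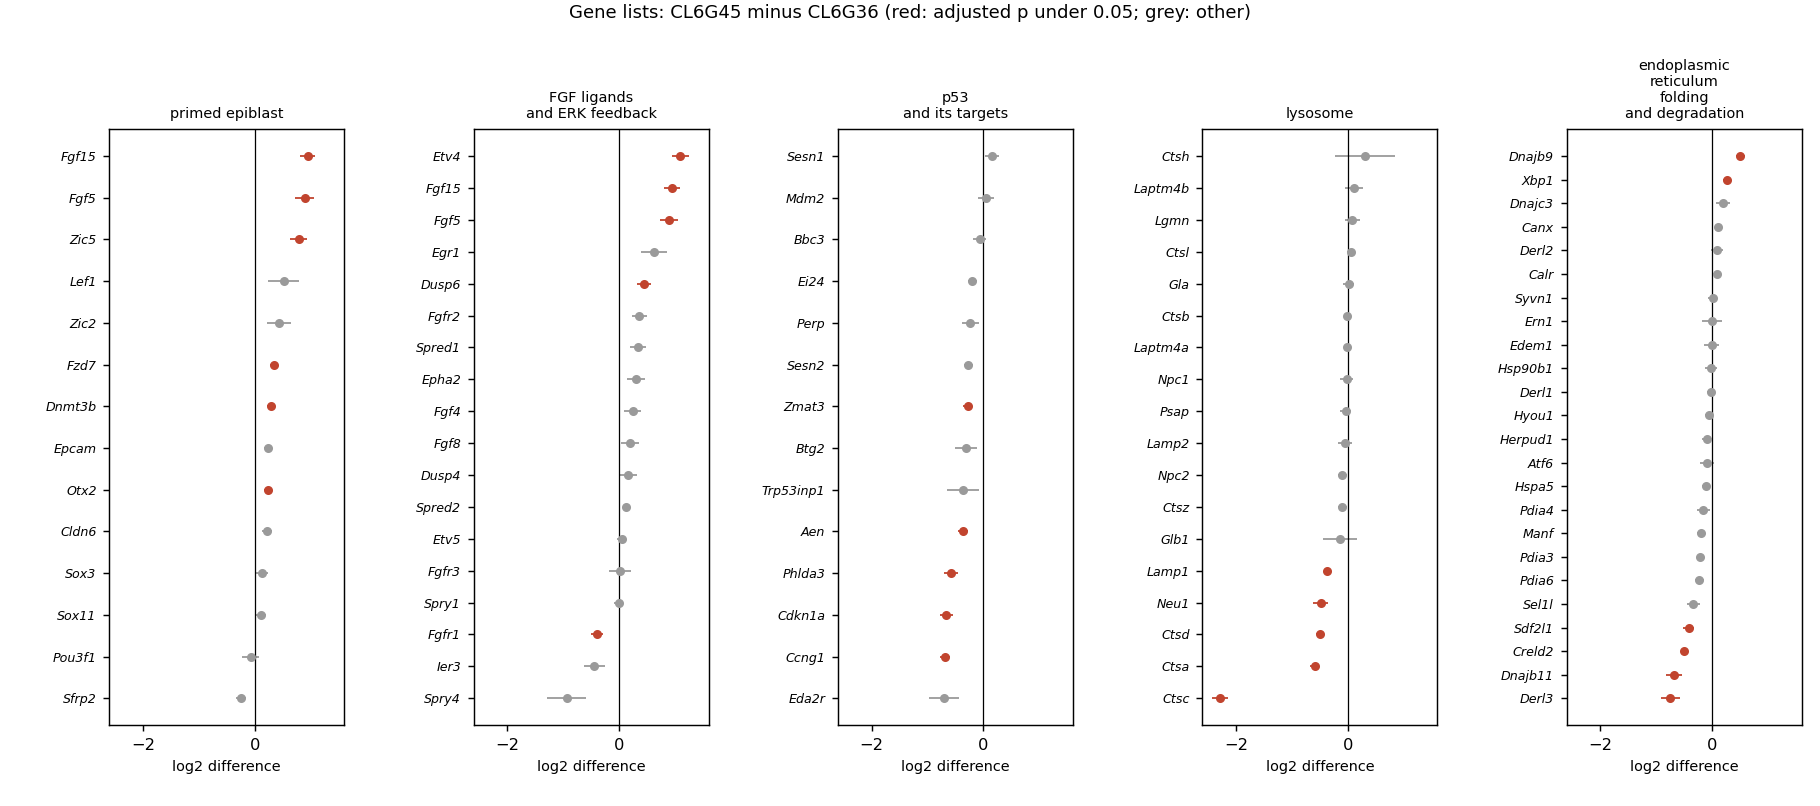
Difference between CL6G45 and CL6G36 (log2, ± SE) for the tested members of 5 gene lists. Members of the primed epiblast list that passed lie above 0, those of the p53 and lysosome lists below 0.

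Lists of stress, protein handling and metabolism are also given by their counts, beside 2.27% of all genes lower and 1.81% higher. Of 14 tested genes of p53 and its targets, 5 passed and all were lower in CL6G45 (median −0.29). They were Ccng1 (−0.69), the cell cycle inhibitor gene Cdkn1a (−0.66), Phlda3 (−0.58), Aen (−0.37) and Zmat3 (−0.28). Cdkn1a gave 6.05, 6.61, 6.33, 6.09 and 6.26 in CL6G45, against 6.74, 6.78, 6.96, 7.06 and 7.12 in CL6G36, with no overlap. None of the 5 passed with signals as deposited or in the limma fit on all 30 arrays, and all 5 were lower in both. Of 18 lysosomal genes 5 passed, all lower: Ctsc, Ctsa (−0.59, and −0.17 without passing where MOE430B was read first), Ctsd (−0.50), the sialidase gene Neu1 (−0.49) and Lamp1 (−0.38), of which Ctsc also passed with signals as deposited. Among 24 genes of endoplasmic reticulum folding, 2 were higher, the chaperone gene Dnajb9 (0.50) and the transcription factor gene Xbp1 (0.26). The 4 lower ones were Derl3 (−0.75), which acts in the export of misfolded proteins, Dnajb11 (−0.68), Creld2 (−0.50) and Sdf2l1 (−0.42), and of these 6 Dnajb11 passed also with signals as deposited. Of 18 aminoacyl-tRNA synthetases 3 were lower (Farsa −0.50, Sars −0.38 and Lars −0.24). Of 11 basement membrane genes 3 were lower (Col18a1 −0.61, Sparc −0.47 and Col4a1 −0.46). In the list of cholesterol and fatty acid synthesis 2 of 20 were higher and 0 lower by limma's adjusted p, and 11 were higher and 1 lower by an unadjusted p under 0.05, beside 18% of all genes. Scd1, the stearoyl-CoA desaturase gene, gave 9.48, 9.53, 9.47, 9.46 and 9.48 in CL6G45, against 8.67, 8.55, 8.60, 8.47 and 8.67 in CL6G36, without overlap (0.89 ± 0.06, limma adjusted p = 2.82e-07). Across all lists 62 distinct genes passed, of which 16 passed also with signals as deposited, against 123 of the 503 over all genes. The directions of Farsa, Fgfr1 and Sparc turned where their MOE430B probe sets were read first (0.046, 0.72 and 0.219), and that of Nrarp with the mean of its probe sets (−0.20). Leaving out 1 replicate or another ended the pass of Apela, Cdh1, Ddit3, Dnmt3a, Dusp6, Fgfr1, Fstl1, Lars, Mixl1, Neu1, Nrarp, Oas1a, Otx2, Rdh10, Skil, Smad1, Stard4, Xbp1 and Zmat3 for 3 or more choices of the array, and that of Aen, Fzd7 and Sdf2l1 for 1.

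The 3 endoplasmic reticulum genes Creld2, Derl3 and Dnajb11 carry in their promoters the response elements that ATF6 and XBP1 are known to bind. These elements are shown because those genes were lower while Xbp1 was higher on the probe set read. The other Xbp1 probe sets differed by 0.0005 to 0.28, and none passed. In the RefSeq promoter windows of GRCm38.p6 (250 bases before to 50 after each start), the element ERSE was searched on both strands as CCAAT and CCACG with 9 bases between them, and was present at 0.137% of 27025 gene symbols. ERSE-II was searched as ATTGG and CCACG with 1 base between them, and was present at 0.0444%. Of the 24 list genes 20 had a window and 11 held either element. The capitals mark the element, read on the opposite strand for ERSE.
Creld2, chr15:88819508-88819550, plus strand: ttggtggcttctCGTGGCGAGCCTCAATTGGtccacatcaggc
Derl3, chr10:75893230-75893272, plus strand: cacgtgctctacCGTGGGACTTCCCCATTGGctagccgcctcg
Dnajb11, chr16:22857840-22857874, plus strand: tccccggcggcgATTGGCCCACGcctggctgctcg
Neither element was in the windows of Sdf2l1, Dnajb9 or Xbp1. The remaining genes with an element (Calr, Canx, Dnajc3, Hsp90b1, Hspa5, Pdia6, Syvn1 and Herpud1) were not among those that passed. A match is a description of these letters only.

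The genes also differed in runs along the chromosomes, a pattern noticed after the values were seen and given without a test. Of 12036 windows of 11 adjacent tested genes, 20 (0.166%) had a median difference of at least 0.5 in size, and all lay in 2 runs. Each run was then cut to its outermost genes that passed by adjusted p. Its end genes therefore passed by that choice, and genes cut off at the ends did not pass, so nothing is read from where a run ends. The run on chromosome 3 reached a window median of −0.861, and that on chromosome 1 a median of 0.601. On all other chromosomes the farthest window median was −0.407. Windows of 7 genes gave −0.861 and 0.706, and windows of 15 genes gave −0.803 and 0.370, the last being close to the 0.328 reached on chromosome 6. With 7 genes a window elsewhere reached −0.598, on chromosome 9. With signals as deposited, less the median of all genes, the values were −0.871 and 0.642.

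On chromosome 3 the run held 20 tested genes between Atp8b2 and S100a1. All 20 were lower in CL6G45, 15 passed by adjusted p, 3 were called (Rps27, Ints3 and a clone name), and the median was −0.69. The gene with a clone name met the filter only with the arrays of CL6G36, so its pass is a description only. Ints3, a subunit of the Integrator complex, gave 7.44, 7.23, 7.09, 7.52 and 7.10 in CL6G45, against 8.65, 8.24, 8.54, 8.28 and 8.45 in CL6G36, without overlap (−1.16 ± 0.11, limma adjusted p = 7.73e-06). Hax1, a mitochondrial survival protein gene, gave 10.77, 10.51, 10.76, 10.80 and 10.59 in CL6G45, against 11.53, 11.31, 11.37, 11.35 and 11.34 in CL6G36 (−0.69 ± 0.06). The groups were again apart. The zinc importer gene Slc39a1 differed by −0.86 ± 0.12, the small GTPase gene Rab13 by −0.88 ± 0.09, and Slc27a3, a fatty acid transport protein gene, by −0.95 ± 0.12. Of 60 tested genes flanking the run, 0 passed by limma's adjusted p, beside 4.08% of all genes. There 10 had an unadjusted p under 0.05 (median −0.03), beside 18% of all genes. Since the run was cut to end at genes that passed, nothing is read from the contrast with its flanks.

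Rab13 and Rps27, a small-subunit ribosomal protein gene, are divergent neighbours in this run, and the bases between their annotated starts are shown because both genes were lower. Rps27 gave 6.23, 5.71, 5.73, 6.08 and 7.46 in CL6G45, against 7.45, 7.45, 7.60, 8.16 and 6.84 in CL6G36. CL6G45 replicate 5 and CL6G36 replicate 5 crossed over, so that the groups overlapped (−1.26 ± 0.29, limma adjusted p = 0.018). Rab13 lay at 6.16 to 6.53 in CL6G45 and at 7.09 to 7.36 in CL6G36. The capitals mark the 66 bases between the starts, from RefSeq windows of GRCm38.p6.
Rab13 and Rps27, chr3:90213624-90213739, plus strand: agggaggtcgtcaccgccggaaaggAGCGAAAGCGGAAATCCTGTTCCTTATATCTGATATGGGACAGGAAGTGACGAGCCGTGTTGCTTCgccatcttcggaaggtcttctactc

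On chromosome 1 the run held 12 tested genes between Cenpf and Nenf, 10 higher and 2 lower in CL6G45, with a median of 0.65. Of these 6 passed by adjusted p, 5 higher and Batf3 lower, and 4 were called (Angel2, Vash2, Batf3 and Nenf). Batf3 met the filter only with the arrays of CL6G36, where it is high, so its pass is a description only. Cenpf, which encodes a kinetochore protein, gave 8.83, 8.87, 8.89, 8.95 and 8.93 in CL6G45, against 7.91, 8.03, 7.97, 7.85 and 7.91 in CL6G36, without overlap (0.96 ± 0.06, limma adjusted p = 2.82e-07). Smyd2, a lysine methyltransferase gene, gave 9.03, 9.13, 9.16, 9.23 and 9.09 in CL6G45, against 8.58, 8.18, 8.49, 8.40 and 8.45 in CL6G36 (0.71 ± 0.08). Angel2, an RNA phosphatase gene, lay at 6.71 to 7.15 in CL6G45 and at 5.64 to 6.28 in CL6G36 (1.02 ± 0.15); its MOE430B probe set differed by 0.71 and did not pass. Batf3 in the same run went the other way, at 0.13 to 3.02 in CL6G45 and 5.01 to 5.74 in CL6G36. Of 51 flanking genes 3 passed (median 0.07), among them the ribosome biogenesis gene Rrp15 (0.99 ± 0.09) and Mtarc2, a molybdenum enzyme gene (0.67 ± 0.08).

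**Figure D4:**
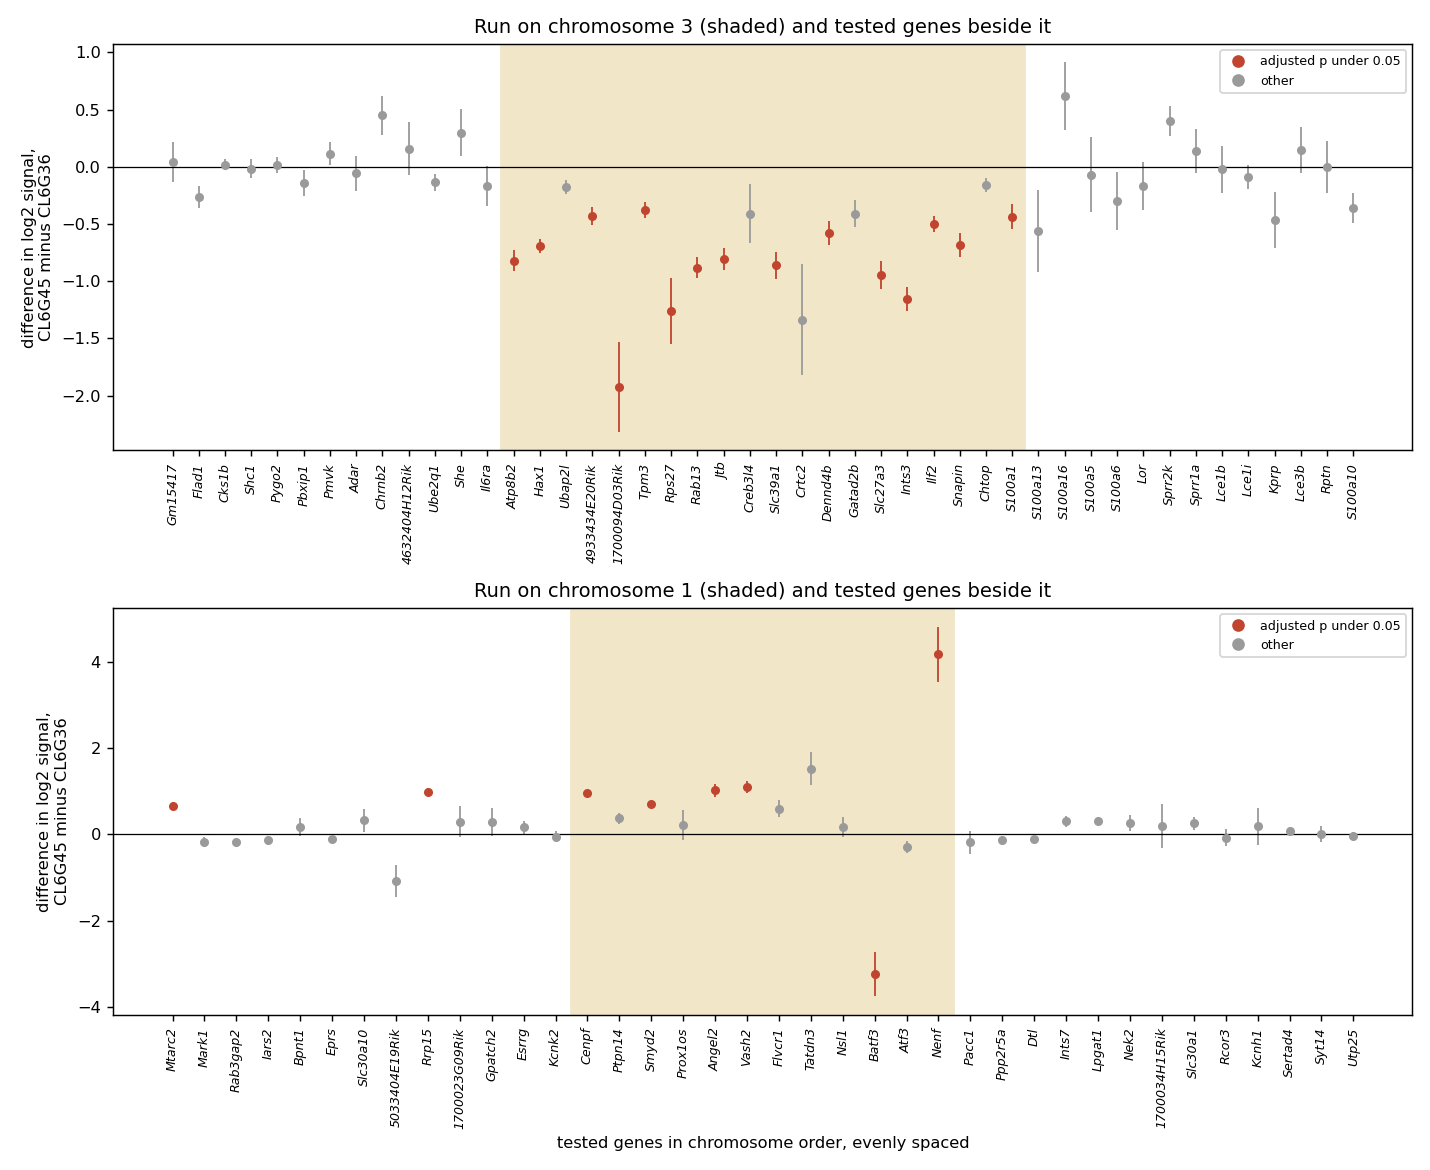
Difference between CL6G45 and CL6G36 (log2, ± SE) of tested genes in chromosome order around the runs on chromosomes 3 and 1, which are shaded, with genes that passed by adjusted p in red. In the chromosome 3 run all 20 genes lie below 0, and in the chromosome 1 run 10 of 12 lie above 0.

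In both runs CL6G36 was the subline that left the level of the other strains. Relative to the mean of P19CL6, CL6G26 and CL6G52 replicates 2 to 5, the median over the genes of the chromosome 3 run lay between −0.08 and 0.08 on the CL6G45 arrays and between 0.67 and 0.76 on the CL6G36 arrays. The P19CL6, CL6G26, CL6G52 and P19 arrays all lay between −0.07 and 0.15. For the chromosome 1 run the CL6G45 arrays lay between −0.05 and 0.07 and the CL6G36 arrays between −0.80 and −0.55. The other strains lay between −0.33 and 0.12, the lowest being a P19 array. In P19 replicates 1 to 3 Smyd2 was at 8.37, 8.39 and 8.42, within the 8.18 to 8.58 of CL6G36. Nenf was lowered there as well, at 2.33, 3.80 and 3.41, whereas Cenpf stayed at 9.31, 9.22 and 9.23. In the same scan of CL6G45 against those strains, 0 windows of 11 genes reached 0.5 in size, and in that of CL6G36 against them 23 did. There the chromosome 3 run reached 0.814 and the chromosome 1 run −0.506, while a window on chromosome 7 between Nucb1 and Lmtk3 reached 0.577, farther from 0 than the chromosome 1 run. Of the 503 genes that passed by adjusted p, 21 lay in the 2 runs, and of the 68 called genes, 7.

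**Figure D5:**
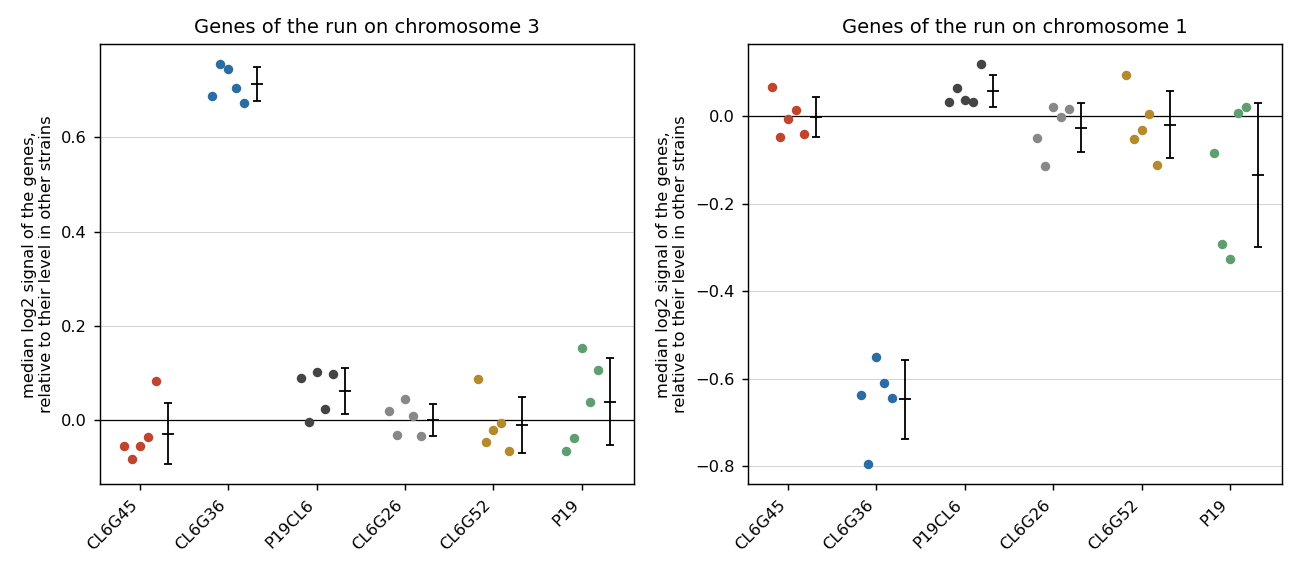
Median over the genes of each run of the log2 signal minus the mean of P19CL6, CL6G26 and CL6G52 replicates 2 to 5, per array and strain. The 5 CL6G36 arrays lie at 0.67 to 0.76 in the chromosome 3 run and at −0.80 to −0.55 in the chromosome 1 run, apart from all other arrays.

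Adjacent tested genes of the called genes made 135 pairs. In 18 of them the neighbour passed by limma's adjusted p, in 14 with the same direction, beside 4.08% of all genes. Of the 18, 8 lie in the runs on chromosomes 3 and 1, all with the same direction, and 10 are among the 122 pairs outside them. Called genes that neighbour each other (Angel2 with Vash2, and Cerox1 with Lmf1) count from both sides. Their passes were fixed by the choice of called genes, so nothing is read from the share. Myo1d beside Tmem98 went the other way (−0.41, limma adjusted p = 0.0315). Cog8, a Golgi tethering complex gene next to Pdf, gave 6.64, 6.48, 6.73, 6.66 and 6.89 in CL6G45, against 5.83, 5.97, 5.93, 5.69 and 5.78 in CL6G36 (0.84 ± 0.10, limma adjusted p = 1.41e-04). Its 2 groups were apart, as for Pdf. Cbr1, the carbonyl reductase gene beside Cbr3, lay at 8.87 to 9.02 in CL6G45 and at 8.30 to 8.63 in CL6G36 (0.52 ± 0.07). Birc2, an inhibitor of apoptosis gene next to Tmem123, lay at 7.93 to 8.26 in CL6G45 and at 7.29 to 7.77 in CL6G36 (0.49 ± 0.10). Cerox1 and its neighbour Lmf1, a lipase maturation gene, went in opposite directions on the probe sets read, Lmf1 with a mean of 5.90 in CL6G45 and 6.90 in CL6G36 (−1.002 ± 0.17). The MOE430B probe set of Lmf1 differed by 0.099 and did not pass. These neighbours were chosen after their values were seen.

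For 20 of the 68 called genes further probe sets were tested, 30 in all. Of these 28 had the same direction as the probe set reported and 10 of them passed by limma's adjusted p. The other 2 had the opposite direction and did not pass. The remaining 48 genes rest on 1 probe set.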

How the data were processed

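RNA of the 6 strains was labelled by a two-cycle biotin cRNA protocol and hybridised to MOE430A and MOE430B arrays (5 replicates per strain and type). Per the submitters' processing notes the authors deposited intensity values computed with GCOS, of which no version is given in the sources used here, so the values were already background-corrected and scaled; their scaling target is not known. CEL files were not used here. Signals were quantile normalized over the 30 arrays of a type, values under 1 were then set to 1, and the result was log2 transformed. As the floor served the 40th percentile on MOE430A and the 60th on MOE430B. Probe sets above it on at least 5 of the 15 arrays of CL6G45, CL6G36 and P19CL6 were tested (14221 and 10336 probe sets). Each type was fitted on the 10 arrays of the 2 sublines with limma 3.58.1 in R 4.3.3, with an intensity trend, and Benjamini-Hochberg adjustment within the type. A gene was read from its brightest probe set, MOE430A first. Within an array type a probe set with the suffix _x_at was read only where no other was tested, even if it was brighter. Of the 22690 and 22575 probe sets, 20380 and 14661 have 1 symbol in the platform annotation, 691 and 245 have several and 1555 and 7605 none.

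The members and gene lists were chosen with earlier results of these data known, so the lists have no test of their own. Genes named are the 12 largest increases and 12 largest decreases without overlap above the floor, the 6 with the smallest adjusted p in each direction that were under it in 1 subline, the 6 markers given for this comparison and up to 6 members of each list. Gene order and promoter windows come from RefSeq, GRCm38.p6. The procedure was tested on simulated data. The replicate numbers did not pair the samples: deviations of same-numbered arrays correlated between −0.10 and 0.06. With 5 arrays a group, precision is limited by their number.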

Additional observations from a re-analysis of the deposited data

Results flagged for a closer look

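Among 190 groups of 5 arrays (95 named genes in 2 sublines) 15, or 7.89%, had 1 array far from the other 4, its gap to the nearest being more than 0.71 of the range; chance flags about 1 group in 20. In CL6G45, Aldh18a1 was at 8.96 in replicate 3 (the others 8.21 to 8.42), Batf3 at 0.13 in replicate 1 (2.23 to 3.02), Cdh1 at 7.28 in replicate 4 (7.61 to 7.65) and Denn2b at 5.16 in replicate 4 (5.70 to 5.92). In the same subline Dnmt3a was at 8.82 in replicate 2 (9.07 to 9.17), Fstl1 at 8.45 in replicate 1 (8.70 to 8.79) and Id3 at 7.25 in replicate 5 (7.49 to 7.59). Sdf2l1 was at 8.45 in CL6G45 replicate 1 (8.28 to 8.32) and Vim at 10.29 in replicate 4 (10.11 to 10.13). In CL6G36, Dll3 was at 4.26 in replicate 4 (4.94 to 5.18), Gsn at 1.72 in replicate 5 (3.73 to 4.36) and Ldb2 at 8.25 in replicate 1 (7.64 to 7.77). Neu1 was at 7.36 in CL6G36 replicate 3 (6.58 to 6.81), Sfrp1 at 6.77 in replicate 2 (6.2 to 6.31) and Sparc at 10.24 in replicate 3 (10.37 to 10.41).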

How the results depend on the processing

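The count of 68 called genes (36 higher and 32 lower in CL6G45) was recomputed under 27 alternatives. It was 43 with signals raised to the floor, 34 (14 of them lower) with 16 added to the signal before the log, 35 (18 higher, 17 lower) with probe sets above the floor on at least 8 of 10 arrays, and 503 (223 higher, 280 lower) with no fold limit. Raised signals gave 19 lower and the signals as deposited 20 lower; 20 were higher with 16 added. Leaving out each replicate in turn gave 56 to 64 called genes, 27 to 38 higher and 24 to 33 lower. The replicate block gave 63 (33 higher, 30 lower), within 1.5 times of 68, and 15 of the 92 named genes that had passed lost the pass with it. Of those 92, 37 kept their direction and an adjusted p under 0.05, whatever the fold, under all their alternatives; signals as deposited lost 48, the fit on all 30 arrays 24, and leaving out a replicate ended the pass of 24. Reversed values were few: Farsa was 0.046, Fgfr1 0.72 and Sparc 0.219 where MOE430B was read first, Nrarp −0.20 with the mean of probe sets, and Nanog −0.051 without CL6G36 replicate 5 (up to 0.184 without CL6G36 replicate 2). The cause was not tested. Windows of 7 and 15 genes and the scan of signals as deposited were added after seeing the data. The number of arrays and the floor limit what low-signal genes can show.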

Other observations

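Cdh1, the epithelial cadherin gene, was higher in CL6G45 (0.47 ± 0.12, limma adjusted p = 0.0276) and Vim, the vimentin gene, lower (−0.43 ± 0.08, adjusted p = 0.00312), of 15 genes tested in the epithelial and mesenchymal list, beside 4.08% of all genes. The other Vim probe sets differed by −0.10 and −0.19 and did not pass. With signals as deposited neither gene passed, and Cdh1 also failed in the limma fit on all 30 arrays (adjusted p = 0.571). Of 10 DNA methylation enzymes the de novo methyltransferase genes passed and went in opposite directions, Dnmt3b higher (0.28) and Dnmt3a lower (−0.35 ± 0.08, limma adjusted p = 0.0225). Another Dnmt3a probe set passed (−0.57), and the rest differed by −0.21 to 0.02 without passing. The other Dnmt3b probe set differed by 0.14 and did not pass. Neither gene passed with signals as deposited or in the fit on all 30 arrays. None of 28 cell cycle genes, 20 imprinted genes, 11 heat shock genes or 4 Y-linked genes tested passed limma's adjusted p; 8, 4, 5 and 0 of them had an unadjusted p under 0.05. Oas1a, an interferon-induced gene, was called higher (1.31) and Bst2, another, was lower (−0.65), of 10 tested in that list. In the glycolysis list 1 of 17 was higher, Pdk1, which restrains pyruvate dehydrogenase (0.36), and 1 was lower, the glucose transporter gene Slc2a3 (−0.20). Stard4, a cholesterol carrier, was higher (0.40). The other Slc2a3 probe sets differed more, by −0.36 to −0.95, and passed. The stress factor gene Ddit3 (−0.50) was lower, 1 of 13 tested in the ATF4 and CHOP list. The proline synthesis gene Aldh18a1 (−0.55) was lower, 1 of 22 tested in the serine, one-carbon and amino acid transport list. Both counts stand beside 4.08% of all genes. The value of Aldh18a1 rests on the probe set read: its other probe sets differed by −0.115 to 0.149, and none passed.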
